A study of Mus with 8 samples.

Results

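The genes described here make cholesterol, sense it and move it in and out of the cell. They were chosen by name, as the rows of the deposited table whose gene symbol is on a list of 34 sterol genes. Of these, 32 had a row (18 enzymes of the mevalonate and sterol steps, 2 enzymes of acetyl unit supply, 4 genes of the SREBP2 machinery, 3 of sterol uptake and transport, and 5 of the LXR and sterol export group), among 23185 named genes in all. Acat2 and Soat2 had no row under these symbols and were dropped. The samples were mouse livers taken 48 h after partial hepatectomy, the removal of part of the liver, after which the remnant grows. They carried the label Control (4 arrays) or LKB1 KO (4 arrays), and each array held total RNA of 1 sample. The sources used here do not give strain, age, sex, the way LKB1 was deleted or the cells it was deleted in, and the groups are known by these labels alone. LKB1 is the kinase encoded by Stk11 and acts upstream of AMPK, which is known to phosphorylate enzymes and regulators of lipid synthesis.

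Cholesterol is built from acetyl units through mevalonate, isoprenoid diphosphates, squalene and a series of sterol intermediates. When sterol in the endoplasmic reticulum is low, SCAP carries the membrane-bound factor SREBP2 to the Golgi, where it is cut and released to switch on the synthesis genes. When sterol is high, INSIG proteins hold SCAP back, and oxidised sterols activate LXR, which switches on genes of sterol export. The liver is a main site of both arms, and it also disposes of cholesterol as bile and bile acids.

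All values are expression levels of single arrays, taken to be on a log2 scale. A row's level depends on its own probes, so levels are compared between arrays and never between genes. The array medians over the named genes lay between 3.75 and 3.96, and the correlations between arrays between 0.960 and 0.988. LKB1 KO 2 (mean correlation with its group 0.974) and Control 4 (0.976) had the lowest values. Stk11 averaged 6.64 ± 0.13 (SD, n = 4) in Control and 4.25 ± 0.41 in LKB1 KO, and no array went against its label. As a gauge of background, 95% of 1350 olfactory and vomeronasal receptor genes had a mean level under 3.73. Of the 32 sterol genes, only Idi1 (3 arrays) and Npc1l1 (4 arrays) had values under this gauge, so their differences are uncertain. Because these are whole livers, fewer cells of a type and less RNA per cell cannot be told apart.

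Most sterol genes had lower means in the LKB1 KO livers, but their arrays spread so widely within each group that few differences could be told from that spread. The mean was lower in LKB1 KO for 26 of 32 genes, where 47.1% of all named genes had a lower mean, and the median difference was -0.55 log2 units against 0.02 over all genes. In the limma fit over all genes, 1 of the 32 passed an adjusted p of 0.05, and it was lower. Over all genes, 1.49% were called lower and 0.487% higher at that threshold, 1.98% together. At an adjusted p of 0.1, 2 of the 32 passed (Mylip and Abca1), against 3.62% of all genes. At an unadjusted p of 0.05, 13 of the 32 passed, 10 lower and 3 higher, against 13.4% of all genes, 7.63% lower and 5.8% higher. The Control and LKB1 KO arrays did not overlap for 4 of the 32 (12.5%), and for 8.84% of all genes. These were Mylip, Abca1 and Nr1h3, which were lower (5.5% of all genes), and Insig2, which was higher (3.34%). The members moved together from array to array, as described next, so these counts do not add up independent observations. The shares over all genes were not matched for level. Of the 23185 named genes, 12790 had at least 1 array under the background gauge, against 2 of the 32.

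**Figure D1:**
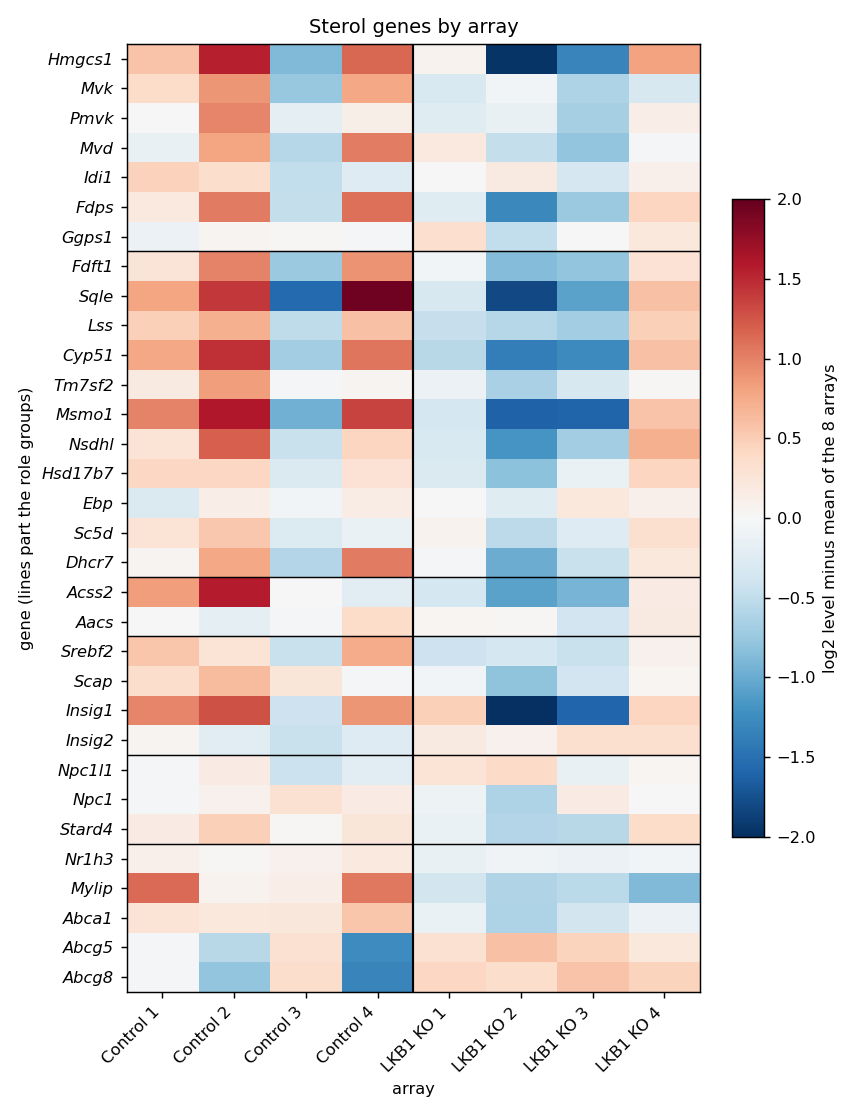
Each row is a sterol gene and each column an array, coloured by the log2 level minus the mean of the 8 arrays for that gene (scale from -2 to 2), with the role groups parted by lines and the groups by the upright line. Control 3 is blue among red Control arrays in most synthesis enzymes, LKB1 KO 4 is red where LKB1 KO 2 and LKB1 KO 3 are blue, and Abcg5 and Abcg8 show the opposite colours in Control 2 and Control 4.

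The synthesis enzymes had the widest swings. Msmo1 (Entrez 66234), which removes methyl groups from the sterol ring, had the largest mean difference of the 32 genes. In array order, its log2 level was 8.54, 9.16, 6.59 and 8.91 in Control and 7.2, 5.93, 5.95 and 8.11 in LKB1 KO. Control 3 thus lay below LKB1 KO 1 and LKB1 KO 4, and the groups overlapped. The difference of -1.5 (SE 0.60, 95% interval -2.83 to -0.17, 2.83-fold lower) did not pass over all genes (limma adjusted p = 0.301). Cyp51, the lanosterol demethylase, stood at 7.02, 7.70, 5.55 and 7.31 in Control and at 5.68, 4.86, 4.96 and 6.83 in LKB1 KO. Here too Control 3 lay among the LKB1 KO arrays, and the difference of -1.31 (SE 0.50) had a limma adjusted p of 0.272.

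Sqle (Entrez 20775) encodes squalene epoxidase, an oxygen-dependent step that limits flux late in the pathway. Its levels were 7.32, 7.96, 4.99 and 8.49 in Control and 6.22, 4.74, 5.47 and 7.13 in LKB1 KO, a range of 13.4-fold between the lowest and the highest array. Control 3 alone was 11.3-fold below Control 4, more than the 2.46-fold difference between the group means. That difference was -1.30 with a 95% interval from -2.86 to 0.26 (limma adjusted p = 0.480). Hmgcs1, the synthase that makes HMG-CoA, showed 8.79, 9.78, 7.34 and 9.38 in Control and 8.29, 6.27, 6.91 and 9.04 in LKB1 KO. LKB1 KO 4 stood above Control 1 and Control 3, and the difference was -1.19 (95% interval -2.59 to 0.20, limma adjusted p = 0.467), or -0.74 without LKB1 KO 2.

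Control 3 was also the lowest Control array for Fdps, Mvk, Pmvk and Mvd of the mevalonate branch. Fdps makes farnesyl diphosphate, the branch point to sterols and prenyl groups. It stood at 5.22, 6.07, 4.55 and 6.13 in Control and 4.79, 3.73, 4.29 and 5.46 in LKB1 KO (difference -0.92, SE 0.41, limma adjusted p = 0.361). Mevalonate kinase, Mvk, was at 5.54, 6.06, 4.42 and 5.95 in Control and at 4.87, 5.12, 4.56 and 4.85 in LKB1 KO. Every Control array but Control 3 lay above all LKB1 KO arrays of Mvk, while Control 3 lay below them all. Its difference of -0.64 (limma adjusted p = 0.421) became -1.0 without Control 3, and then passed (limma adjusted p = 0.0291). That array was picked after the values were seen, and without Control 2 the difference was -0.45 (limma adjusted p = 0.678). The next kinase, Pmvk, and the decarboxylase Mvd differed by -0.46 and -0.55, and neither passed. Without Control 2 the difference of Pmvk was -0.21, and that of Mvd was -0.30 without Control 4 and -0.83 without Control 3.

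In the branch from squalene to cholesterol, Fdft1 (squalene synthase) differed by -0.71, Lss (lanosterol synthase) by -0.63, Nsdhl by -0.72, Hsd17b7 by -0.41 and Dhcr7, which catalyses the last reduction to cholesterol, by -0.64. Tm7sf2, a sterol reductase, was at 7.66, 8.32, 7.45 and 7.53 in Control and 7.36, 6.83, 7.15 and 7.5 in LKB1 KO (difference -0.53, SE 0.21, limma adjusted p = 0.300). Several of these sizes rested on 1 array. Without Control 2 the difference was -0.34 for Tm7sf2 and -0.45 for Nsdhl, without Control 3 it was -1.07 for Fdft1, and without Control 4 it was -0.40 for Dhcr7. Without LKB1 KO 2 it was -0.45 for Nsdhl, -0.21 for Hsd17b7 and -0.41 for Dhcr7, and without LKB1 KO 4 it was -0.62 for Hsd17b7. In all, 0 of 18 synthesis enzymes passed over all genes in limma, where 1.98% of all genes did. Of the 18, 4 (22.2%) had an unadjusted p under 0.05, all of them lower. Over all genes 7.63% did so with a lower mean and 5.8% with a higher one. At the adjusted threshold, a trended and robust prior and array weights likewise gave 0 calls among the 18.

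A few enzymes of the same pathway showed small differences between the groups. Ebp, the sterol isomerase, differed by 0.04 (95% interval -0.29 to 0.37) and Ggps1, which makes geranylgeranyl diphosphate for protein prenylation, by 0.03 (-0.36 to 0.41). The isomerase gene Idi1 differed by -0.04 (-0.53 to 0.45) and the desaturase gene Sc5d by -0.20 (-0.70 to 0.30), with values for Sc5d from -0.34 (without LKB1 KO 4) to -0.05 (without Control 2), -0.32 without Control 3 and -0.06 without LKB1 KO 2. The signs of Ebp, Ggps1 and Idi1 turned when single arrays were left out, and that of Ggps1 also under median centring. In Ebp and Ggps1 the lowest Control array was Control 1, not Control 3, with an SD in Control of 0.21 and 0.08 against 1.54 for Sqle.

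**Figure D2:**
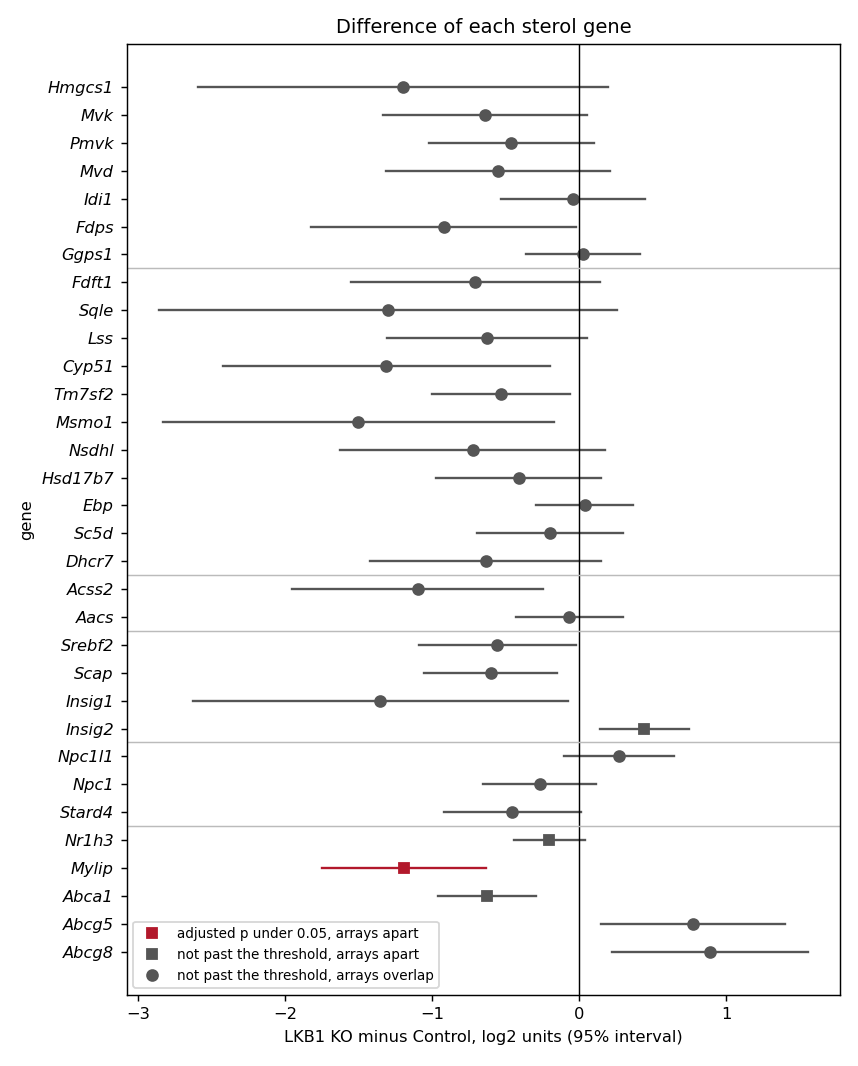
Points give the difference LKB1 KO minus Control in log2 units for each of the 32 genes, with lines for the 95% interval of the limma fit, squares for genes whose arrays do not overlap and red for an adjusted p under 0.05. Mylip (-1.19) is the red square, and the long lines of Sqle, Msmo1, Hmgcs1 and Insig1 mark the genes with the widest spread.

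The spread within the groups was itself the main feature of the synthesis enzymes. Over the 18 enzymes the median SD was 0.70 log2 units in Control and 0.52 in LKB1 KO (n = 4 each), against 0.21 and 0.22 over all named genes. Relative to the median gene in the same of 5 equal bins of mean level, the enzymes' SD was 3.18 times as large in Control and 2.41 times in LKB1 KO (medians over the 18). In Control, 12 of 18 enzymes had a larger SD than 90% of the genes in their bin, and in LKB1 KO 11 of 18 did. Sqle, at 7.93 times the median gene of its bin, had the widest spread of the 32 genes in Control. Insig1, at 6.79 times, had the widest in LKB1 KO. Other lipid lists spread less, with a median SD in Control of 0.31 for 14 genes of SREBP1c-driven fatty acid synthesis and 0.37 for 12 genes of bile acid synthesis. That contrast was not tested.

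The spread had a common order of arrays. Control 3 was the lowest Control array in 16 of the 18 enzymes, and Control 2 the highest in 12. In LKB1 KO, array 2 was the lowest in 13 enzymes and array 4 the highest in 13. Control 3 lay below LKB1 KO 4 in all 18 enzymes and below the LKB1 KO mean in 15, comparisons chosen after the values were seen. Taken as the median over the 18 enzymes of the deviation from the mean of the 8 arrays, the Control arrays stood, in order, at 0.27, 0.87, -0.50 and 0.68 and the LKB1 KO arrays at -0.18, -0.74, -0.68 and 0.31. The groups overlapped in this measure through Control 3 and LKB1 KO 4. By the same measure, LKB1 KO 2 was also the lowest LKB1 KO array for hepatocyte (-0.13), endothelial (-0.38) and stellate markers (-0.39). For macrophage markers the lowest was LKB1 KO 3 (-0.43). Over all named genes, LKB1 KO 2 had the smallest SD of the 8 arrays (1.92). Its low position was thus shared by some other lists, but not by all. For neutrophil and erythroid markers the lowest LKB1 KO array was LKB1 KO 1 (-0.55 and -0.98). For the dim lymphocyte markers LKB1 KO 2 was the highest (0.48). Over all named genes its median deviation was -3.8e-05. Why LKB1 KO 2 stood low was not tested. In 10 of the 18 enzymes the SD within Control exceeded the size of the difference between the groups.

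Leaving out single arrays moved the size of the median difference over the 18 enzymes, not its direction. It was -0.63, and ranged from -0.45 without Control 2 to -0.92 without Control 3. Without Control 3 the median SD of the 32 genes in Control was 0.34, against 0.54 with it. In that fit the limma adjusted p of Msmo1, Cyp51 and Sqle was 0.0707, 0.0796 and 0.0835, with differences of -2.07, -1.76 and -2.03. Control 3 was singled out after the values were seen, and removing a group's lowest array raises its mean. Without Control 2 instead, the limma adjusted p of these genes was 0.544, 0.520 and 0.692. Control 3 was not among the arrays with the lowest correlation to their group, and its hepatocyte markers had the highest median deviation from the mean of the 8 arrays (0.15).

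**Figure D3:**
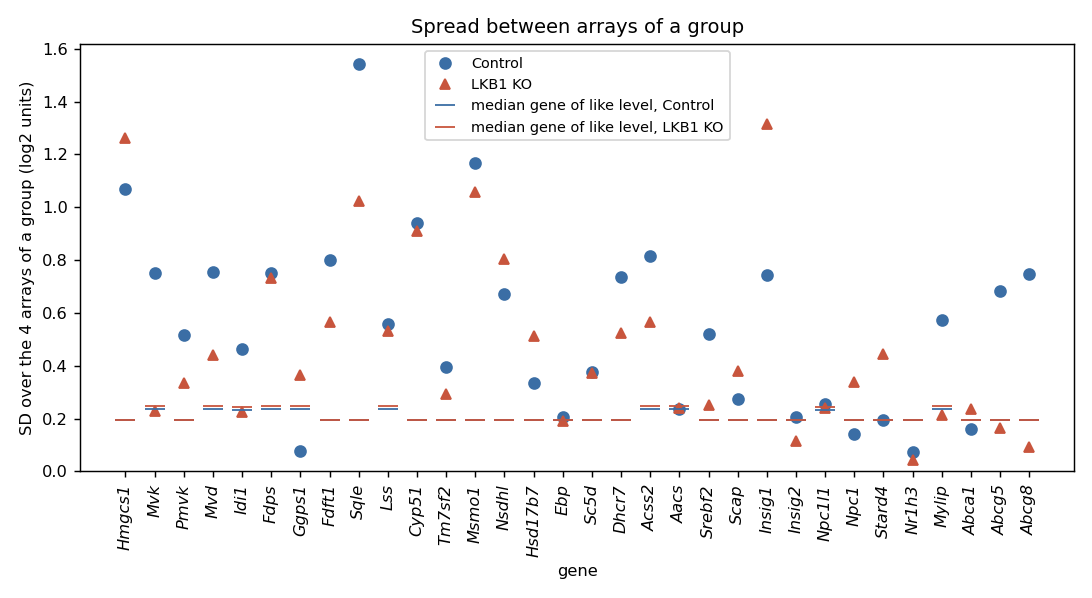
For each of the 32 genes, the circle gives the SD over the 4 Control arrays and the triangle the SD over the 4 LKB1 KO arrays, in log2 units, and the short bars the median SD of all genes in the same bin of mean level. Sqle, Msmo1, Hmgcs1, Cyp51 and Insig1 stand far above the bars, whereas Nr1h3 stands below them, and Abcg5 and Abcg8 are high in Control alone.

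The genes that regulate SREBP2 shared part of this pattern. Insig1, itself an SREBP target whose product retains SCAP, was at 9.57, 9.86, 8.19 and 9.47 in Control and 9.07, 6.58, 7.01 and 9.02 in LKB1 KO. LKB1 KO 2 and LKB1 KO 3 were low, while LKB1 KO 1 and LKB1 KO 4 lay above Control 3. The difference was -1.35 (SE 0.58, 95% interval -2.63 to -0.08, limma adjusted p = 0.340). Srebf2, which encodes SREBP2, stood at 7.28, 7.0, 6.28 and 7.46 in Control and 6.31, 6.38, 6.29 and 6.82 in LKB1 KO. Only Control 3 kept the groups from parting, since it lay level with LKB1 KO 3 as the lowest of the 8 arrays, and the difference of -0.56 had a limma adjusted p of 0.350. Without Control 3 it was -0.80, with a limma adjusted p of 0.0645, and without Control 4 it was -0.41 (limma adjusted p = 0.550).

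Scap, the escort of SREBP2, was at 8.17, 8.46, 8.06 and 7.80 in Control and 7.77, 7.03, 7.44 and 7.87 in LKB1 KO, so LKB1 KO 4 lay above Control 4. It differed by -0.60 (SE 0.20, limma adjusted p = 0.203). Insig2, the second INSIG gene, went the other way. Its levels were 9.04, 8.76, 8.55 and 8.74 in Control and 9.17, 9.07, 9.31 and 9.31 in LKB1 KO, and all LKB1 KO arrays lay above all Control arrays. The difference of 0.44 (SE 0.14, 95% interval 0.14 to 0.75) did not pass (limma adjusted p = 0.162). Over the alternatives tried its adjusted p lay between 0.0700 and 0.322. Insig2 also lacked the wide spread of Insig1, with an SD of 0.20 in Control and 0.12 in LKB1 KO against 0.74 and 1.31.

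The enzymes that supply acetyl units differed from each other. Acss2, a cytosolic acetyl-CoA synthetase under SREBP control, was at 6.75, 7.49, 5.93 and 5.71 in Control and 5.57, 4.86, 4.99 and 6.08 in LKB1 KO. Here Control 4, high in most sterol enzymes, was the lowest Control array, and LKB1 KO 4 lay above it. The difference was -1.10 (SE 0.39, limma adjusted p = 0.223). Aacs, which activates the ketone body acetoacetate for lipid synthesis, was at 4.65, 4.46, 4.63 and 5.02 in Control and 4.69, 4.68, 4.28 and 4.84 in LKB1 KO, with a difference of -0.07 (95% interval -0.43 to 0.30) whose sign turned when Control 4 or LKB1 KO 3 was left out.

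Genes of sterol uptake and transport within the cell gave no call. Stard4, a soluble sterol carrier and SREBP target, was at 6.55, 6.87, 6.40 and 6.63 in Control and 6.25, 5.81, 5.82 and 6.75 in LKB1 KO. Its difference was -0.46 (SE 0.21, limma adjusted p = 0.387), and LKB1 KO 4 again lay among the Control arrays. Npc1, which exports cholesterol from lysosomes, differed by -0.27, with LKB1 KO 2 the lowest array at 6.76, and by -0.11 without that array. Npc1l1, which encodes a sterol uptake protein, was dim, at 3.67, 3.86, 3.27 and 3.48 in Control and 3.97, 4.10, 3.56 and 3.74 in LKB1 KO (difference 0.27, limma adjusted p = 0.550, and 0.17 without Control 3).

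Among LXR and its targets, Mylip fell in the LKB1 KO livers. Mylip (Entrez 218203), also called IDOL, is a ubiquitin ligase that LXR can induce and that sends lipoprotein receptors to degradation. Across the arrays in order it stood at 5.99, 4.93, 4.99 and 5.90 in Control and at 4.49, 4.26, 4.32 and 3.98 in LKB1 KO. Every LKB1 KO array lay below every Control array, and the Control arrays formed a high pair (1 and 4) and a low pair (2 and 3). The means were 5.45 ± 0.57 and 4.26 ± 0.21 (SD, n = 4), a difference of -1.19 (SE 0.25, 95% interval -1.75 to -0.63, 2.28-fold lower, limma adjusted p = 0.0396). The call ended when any array other than Control 2 or Control 3 was left out (differences -1.01 to -1.27, limma adjusted p up to 0.122) and when both LKB1 KO 2 and Control 4 were (limma adjusted p = 0.127). It also ended without moderation of the variances (limma adjusted p = 0.206).

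Abca1 (Entrez 11303), the LXR target that loads cholesterol onto nascent high-density lipoprotein, came closest after Mylip. It was at 8.55, 8.48, 8.50 and 8.83 in Control and 8.15, 7.65, 7.90 and 8.15 in LKB1 KO, with no overlap. The difference of -0.63 (SE 0.15, 95% interval -0.96 to -0.29, 1.54-fold lower) had a limma adjusted p of 0.0655, just outside the threshold, and passed with a trended and robust prior (limma adjusted p = 0.0378). Nr1h3, the gene of LXR-alpha itself, was the steadiest of the 32, at 7.23, 7.15, 7.22 and 7.33 in Control and 6.98, 7.06, 7.01 and 7.07 in LKB1 KO. These arrays did not overlap either, but the difference was small, -0.20 (95% interval -0.44 to 0.04, limma adjusted p = 0.481).

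Abcg5 and Abcg8 encode both parts of the transporter that secretes sterols into bile. They are direct neighbours in the RefSeq gene table of assembly GRCm38.p6. Abcg5 was at 7.25, 6.75, 7.61 and 6.03 in Control and 7.61, 7.88, 7.75 and 7.51 in LKB1 KO, and Abcg8 at 7.09, 6.34, 7.48 and 5.81 in Control and 7.55, 7.47, 7.69 and 7.57 in LKB1 KO. Both genes had the same order of Control arrays, with Control 3 high and Control 4 low, and Control 3 lay within the LKB1 KO range. Their differences were 0.78 (SE 0.28, limma adjusted p = 0.243) and 0.89 (SE 0.30, limma adjusted p = 0.203), or 0.48 and 0.60 without Control 4.

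The spread of this pair was uneven between the groups. For Abcg8 the SD was 0.75 in Control and 0.09 in LKB1 KO, and for Abcg5 0.68 and 0.16. Whether the SD differed between the groups was not tested. Across the Control arrays the pair ran opposite to the synthesis enzymes: Control 2 and Control 4, highest for the enzymes, were lowest for Abcg5 and Abcg8, and Control 3, lowest for the enzymes, was highest for the pair. In LKB1 KO, array 4 was the lowest for Abcg5 (7.51) and array 2 the highest (7.88), while for Abcg8 array 2 was the lowest (7.47) and array 3 the highest (7.69). LXR is known to induce each of Abcg5, Abcg8, Mylip and Abca1 in some cells, but its activity on them in these livers was not measured. The means of the first pair were higher and those of the second lower in LKB1 KO, and of these differences only that of Mylip passed.

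**Figure D4:**
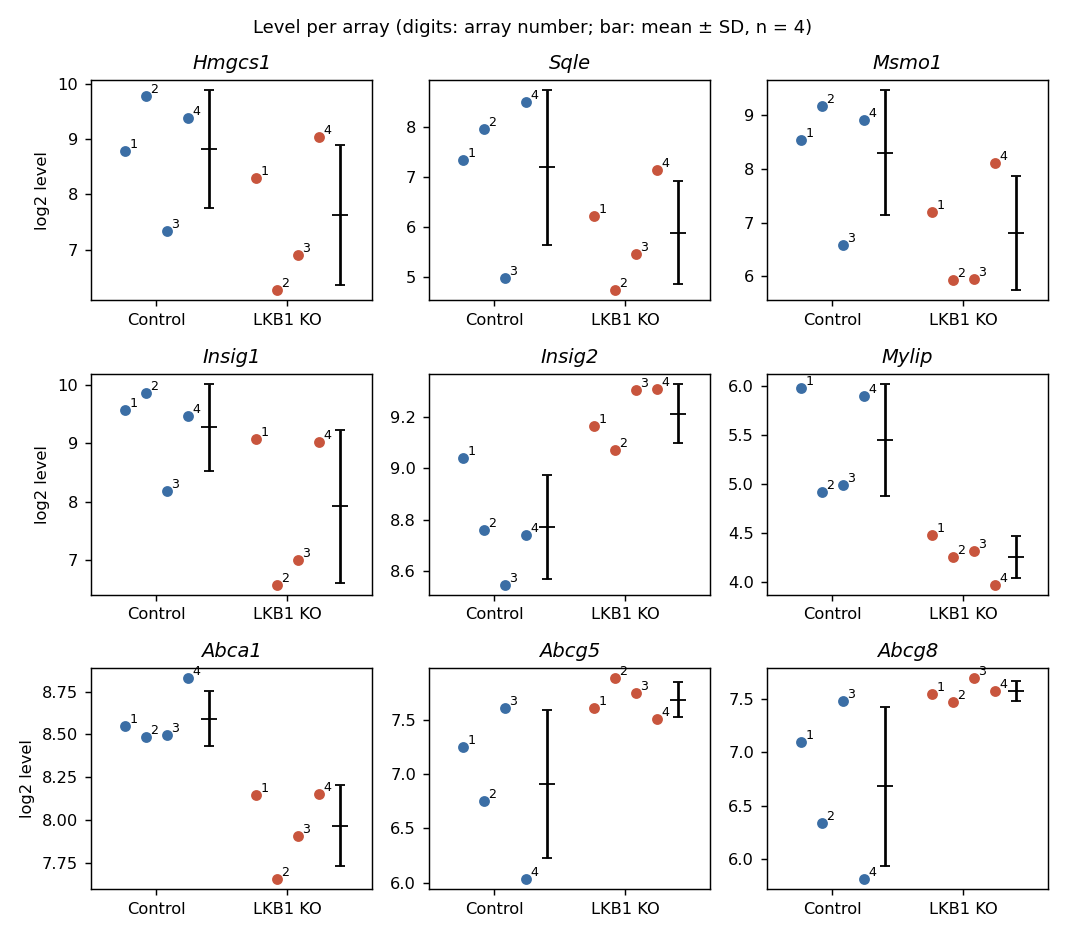
Each panel gives the log2 level of 1 gene on the 8 arrays, with the array number beside each point and the mean ± SD of the group (n = 4) at its right, and each panel has its own axis range. Control 3 lies with the LKB1 KO arrays for Hmgcs1, Sqle and Msmo1, whereas no array crosses over for Insig2, Mylip and Abca1.

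Other genes of the pathway, on 5 lists with 65 measured members, gave 11 calls, all lower in LKB1 KO (16.9%, against 1.49% of all genes called lower). The lists were drawn up with earlier results of these data known, so their shares of calls only describe them. The shares over all genes were not matched for level. Of the 65 genes, 2 had an array under the background gauge, against 12790 of the 23185 named genes. The list of bile acid synthesis from cholesterol held 7 of them among 12 genes (58.3%, against 1.98% of all genes), with a median difference of -0.70. In 3 others the mean was higher with an unadjusted p under 0.05, Akr1d1 (0.74, limma adjusted p = 0.126), Amacr (0.60, limma adjusted p = 0.122) and Cyp39a1 (0.70, limma adjusted p = 0.212), and the arrays of the first pair did not overlap. The 7 calls were Cyp7a1 (-2.43) and Cyp27a1 (-0.85), which start the classic and the alternative route, Cyp7b1 (-1.01) and Hsd3b7 (-1.10) of the following steps, the peroxisomal thiolase gene Scp2 (-0.58), and Slc27a5 (-0.77) and Baat (-0.63) of bile acid conjugation. Cyp7a1 averaged 7.84 ± 1.22 in Control and 5.41 ± 0.33 in LKB1 KO (SD, n = 4). Its arrays did not overlap, and its limma adjusted p was 0.0312.

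In the list of other LXR and sterol transport genes, 3 of 17 fell (17.6%, against 1.49% of all genes) and 0 rose (against 0.487%). The 3 were Rxra (-0.69), the partner receptor of LXR, the sterol carrier gene Stard5 (-1.04) and Lrp1 (-0.97), an endocytic lipoprotein receptor. Srd5a3 (-0.59), a reductase of the dolichol branch, was the only call among 13 genes of the branches and redox partners (7.69%). In the list of SREBP processing and sterol sensing in the endoplasmic reticulum, 0 of 9 passed in limma and 0 had an unadjusted p under 0.05. Its median was -0.15, and Erlin1 (-0.25) and Tmem97 (-0.28) came closest. The 14 genes of SREBP1c-driven fatty acid synthesis also had 0 calls, with a median of -0.09. At an unadjusted p of 0.05, 7 of the 14 passed, 3 lower and 4 higher, against 13.4% of all genes.

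Leaving out single arrays ended 9 of these 11 calls, all but Stard5 and Lrp1, which ended without moderation of the variances (limma adjusted p = 0.0603 and 0.0617). Any array did so for Srd5a3, any but Control 4 for Cyp7a1 and Slc27a5, any but Control 3 for Scp2, any but Control 3 or Control 4 for Cyp27a1 and Cyp7b1, and any of Control 1, Control 2, LKB1 KO 1, LKB1 KO 3 and LKB1 KO 4 for Baat. Hsd3b7 lost its call without Control 2, LKB1 KO 3 or LKB1 KO 4, and Rxra without LKB1 KO 1 or LKB1 KO 4.

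**Figure D5:**
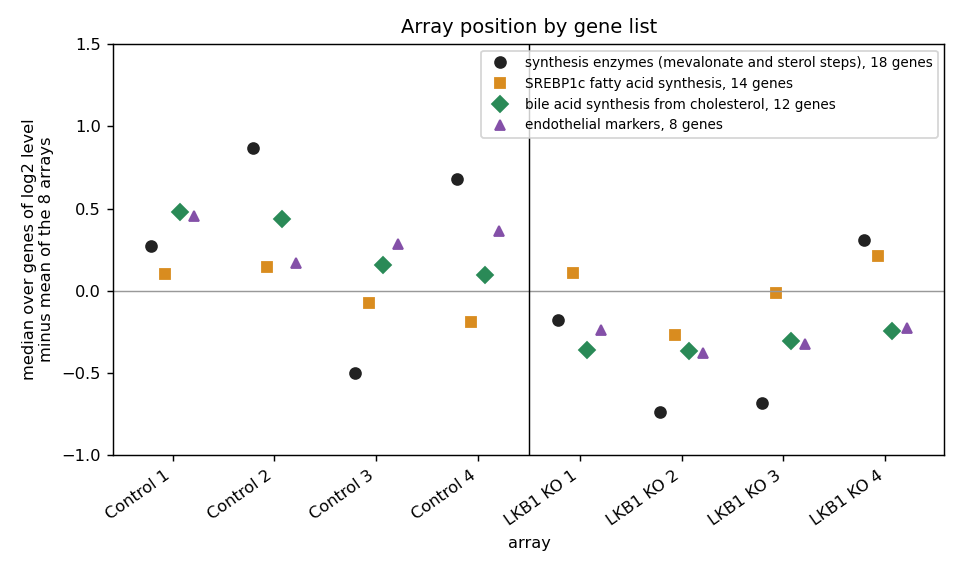
For each array, the marks give the median over the genes of a list of the log2 level minus the mean of the 8 arrays, for 18 synthesis enzymes (circles), 14 genes of SREBP1c-driven fatty acid synthesis (squares), 12 genes of bile acid synthesis (diamonds) and 8 endothelial markers (triangles). The diamonds and triangles part at the line between the groups, while the circles cross it at Control 3 (-0.50) and LKB1 KO 4 (0.31).

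The tissue label held against the hepatocyte markers, 8 of 8 of which were measured, with a summed level (log2 of the sum of linear values) of 14.91 to 15.01 in Control and 14.75 to 14.84 in LKB1 KO. These hepatocyte ranges did not overlap, and 6 of the 8 markers had a lower mean in LKB1 KO, with 0 calls. Markers of other liver cells were also lower in the same LKB1 KO arrays in which Mylip and Abca1 were lower. All 8 endothelial markers had a lower mean (summed level 9.998 to 10.29 in Control and 9.47 to 9.66 in LKB1 KO). Of these 8, 3 passed the threshold (37.5%, against 1.98% of all genes). All 11 macrophage markers had a lower mean too (10.09 to 10.89 and 9.70 to 10.16, overlapping through LKB1 KO 4), and 1 passed (9.09%). Of the stellate markers 7 of 8 had a lower mean (9.33 to 9.68 and 8.86 to 9.27), and of the neutrophil markers 4 of 5 (8.29 to 9.999 and 7.66 to 8.25). The neutrophil marker Mpo had a higher mean (0.29, limma adjusted p = 0.331). No endothelial, macrophage or stellate marker lay under the gauge on every array, and Ly6g of the neutrophil markers did. Mpo and Csf3r lay under it on 6 and 7 arrays, and S100a8 and S100a9 on 0. The part of these cell markers in the results for Mylip and Abca1 was not tested.

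Summed levels overlapped between the groups for the 2 measured erythroid markers (8.43 to 9.0 and 7.12 to 8.94), of which Alas2 fell (-1.03, limma adjusted p = 0.0471) and Hbb-bs had a lower mean (-0.86, limma adjusted p = 0.385). Summed levels also overlapped for 5 cholangiocyte markers (6.13 to 6.84 and 6.11 to 6.64, with Epcam and Cftr under the gauge) and for 5 lymphocyte markers (5.02 to 5.33 and 5.17 to 5.70, with Cd3g, Ms4a1 and Cd79a under it). The remaining lymphocyte markers, Cd3e and Nkg7, lay under the gauge on 7 arrays each, so this list was close to background. The 5 gut and pancreas markers overlapped too (8.90 to 9.87 and 9.27 to 9.63, with Vil1, Lct and Prss1 under the gauge). In Control 3, which stood low for the synthesis enzymes, the endothelial and macrophage medians were 0.29 and -0.06 from the mean of the 8 arrays, and in LKB1 KO 4, which stood high, -0.22 and 0.04.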

How the data were processed

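Liver RNA of 8 samples, 4 Control and 4 LKB1 KO, was measured on 1 array each. Per the labels' protocols, total RNA was extracted with TRIzol, amplified to cDNA and labelled with biotin. The authors deposited 1 log2 expression value per row and array, and the submitters' processing notes name RMA and Partek without versions. RMA compresses differences of dim probes. The sources used here give neither probe positions nor a genome build, and coordinates are left out. Of 25206 rows, 23185 had 1 gene symbol and 2021 none. No value was missing.

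The members, gene lists and tests were chosen with earlier results of these data known. A model with the group as its single term was fitted to all 23185 named genes with limma 3.58.1 in R 4.3.3 (lmFit, eBayes), with Benjamini-Hochberg adjustment over all of them and a threshold of 0.05. Differences are LKB1 KO minus Control. The fit was tested on simulated data. Nothing in the labels says that the samples are separate animals, so p-values measure only the spread between these samples, which may be technical. The number of arrays limits the precision.

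Named were all 32 members, with the value of every array for those past the threshold, those whose arrays did not overlap and at least the 2 with the smallest p in each role group. Of each pathway list, the genes past the threshold were named, or else the 2 with the smallest p. Array values of other genes with a wide spread were added. The spread of a gene is its SD over a group's 4 arrays, set beside the median gene in the same of 5 equal bins of mean level. Alternatives were each array or the pair of LKB1 KO 2 and Control 4 left out, a block for the replicate number, quantile normalization, median centring, the dimmest of 3 bins of mean level left out, a trended and robust prior, no moderation, array weights, all rows and an adjusted p of 0.1. A planned search of promoters for motifs was not run, since promoter sequences were not used here.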

Additional observations from a re-analysis of the deposited data

Results flagged for a closer look

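Each of the 32 genes was looked at in both groups for a single array far from the other 3 (64 groups of 4 arrays, with the gap to the nearest array divided by the range). One such case was found. Chance gives about 1 in 20 groups, so 1 case among 64 groups was no more than chance alone gives. In Srebf2, LKB1 KO 4 (6.82) was the highest LKB1 KO array by a gap that made up 0.833 of the range of its group, with the nearest array at 6.38, just above Dixon's critical value at 95% for 4 samples. The same array was the highest LKB1 KO array for 13 of the 18 synthesis enzymes. No other of the 64 groups passed that value.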

How the results depend on the processing

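The median difference stayed below 0 for the 32 sterol genes and for the 18 synthesis enzymes under all 17 alternatives tried, between -0.65 and -0.37 for the former. Of 544 refits of single members, 521 kept direction and side of the threshold. The number of members past the threshold, 1 in the model used, was 0 with the replicate block, without LKB1 KO 2 and Control 4 together and without moderation, 2 with the trended and robust prior and 2 at an adjusted p of 0.1, and 0 to 2 with single arrays left out. Counts over all genes, 458, became 268 with the replicate block, 97 without moderation, 721 with array weights, 839 at an adjusted p of 0.1 and 213 to 491 with single arrays left out. Pathway list calls, 11, became 4 with the replicate block, 3 without moderation and 2 to 11 with single arrays left out. Between arrays of equal replicate number the correlations of deviations were -0.04, -0.11, 0.18 and -0.02. These values cannot settle whether such arrays share a day or litter, and the labels do not say. Under the replicate block Mylip (limma adjusted p = 0.0629), Srd5a3, Rxra, Cyp27a1, Cyp7b1, Scp2, Slc27a5 and Baat were not called. The limma adjusted p fell there for Msmo1 (0.143) and Cyp51 (0.167) and rose for Tm7sf2 (0.407), and none of them was called. The sterol genes' median SD in Control ran from 0.34 (without Control 3) to 0.60. Signs turned for Ggps1 (-0.0094 under median centring, -0.082 to 0.19 with single arrays left out), Idi1 (-0.21 to 0.11), Ebp (-0.052 to 0.12) and Aacs (-0.14 to 0.048, and 0.025 without LKB1 KO 2 and Control 4). The causes were not tested. Idi1 and Npc1l1 are limited by signal close to background.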

Other observations

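Genes of fatty acid synthesis, which SREBP1c rather than SREBP2 is known to drive, shared the order of the LKB1 KO arrays with the sterol enzymes, but not that of all Control arrays. As given above, LKB1 KO 2 was also the lowest LKB1 KO array for hepatocyte, endothelial and stellate markers, but not for macrophage, neutrophil, erythroid or lymphocyte markers. The fatty acid genes' median stood, in array order, at 0.11, -0.27, -0.02 and 0.21 in LKB1 KO, where the sterol enzymes stood at -0.18, -0.74, -0.68 and 0.31. Control 2 was the highest Control array in both. The fatty acid median stood at -0.07 in Control 3 and -0.19 in Control 4 relative to the mean of the 8 arrays, where the sterol enzymes stood at -0.50 and 0.68. Within that list, Scd1 (stearoyl-CoA desaturase) and Acly (ATP citrate lyase) had arrays that did not overlap, in opposite directions, with differences of -0.45 (SE 0.12, limma adjusted p = 0.110) and 0.54 (SE 0.16, limma adjusted p = 0.148). Scd1 passed with the trended and robust prior (limma adjusted p = 0.0273) and with array weights (0.0464), while Acly passed under no alternative tried (limma adjusted p 0.106 to 0.324).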
